A study of Mus musculus with 6 samples.

Results

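Gdpd3, Cd109, Trp53i11, AA467197, Ahnak2, Capg and Chst1 are 7 genes of unrelated families, out of 19938 genes measured in mouse hearts. The heart called Id cKO lacks Id3 in every cell, and of its Id1 alleles 1 is null and 1 conditional. The 7 genes were chosen by the deposited log2 values. On these, each was at least 2-fold higher in Id cKO than in a wild-type heart and in each of 2 Id control hearts. That difference is therefore given here only as a description. The measurements that the choice did not use come from another pair of hearts, also labelled Id cKO. Of these, 1 was incubated with IGFBP3 and 1 without, and the pair carries the tests.

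The series measured RNA of 6 adult mouse hearts, 1 Affymetrix Mouse Gene 1.0 ST array each, to learn what loss of Id genes in blood vessels does to the heart. Id1 and Id3, helix-loop-helix proteins without a DNA-binding part, pair with E proteins and hold these off their sites. IGFBP3-treated Id cKO is a conditional Id knockout heart that received recombinant mouse IGFBP3, a secreted binder of insulin-like growth factors, and untreated Id cKO is its control. Both are labelled conditional knockout, with alleles not spelled out for this pair. Id cKO carries Tie2Cre, Id1 alleles of which 1 is floxed and 1 null, and lacks functional Id3. Id control 1 carries 1 floxed and 1 wild-type Id1 allele and no functional Id3, and no Cre is named for it. Id control 2 carries Tie2Cre with both Id1 alleles null and 1 of its Id3 alleles working. WT is wild type. All hearts came from mice of 6 months (postnatal day 180), and the labels state neither how many animals gave a sample nor a genetic background. Tie2Cre is a transgene active in endothelial and blood cells, so that in Id cKO the floxed Id1 allele is a target in those cells while Id3 is absent from every cell. The 2 Id control hearts differ in genotype and each already lacks working alleles of 1 of the Id genes.

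Values are log2 expression levels, on which a step of 1 is a 2-fold change. As deposited, the medians of the IGFBP3-treated and untreated arrays were 4.45 and 4.51, and those of the Id cKO, Id control and WT arrays lay between 5.73 and 5.83, 1.29 higher on average. Comparisons of the incubated pair with other hearts were therefore made after quantile normalization, which gives all 6 arrays the same distribution. The pair also has a date code of its own, so that date code and incubation cannot be told apart, whereas Id cKO, Id control 2 and WT share a code. By Xist and Eif2s3y, the incubated pair and WT had a male pattern and Id cKO and both Id controls a female one. On deposited values, Id1 was at 5.70 in both incubated hearts, 6.48 in Id cKO, 8.11 and 6.41 in Id controls 1 and 2, and 8.14 in WT. Id3 was at 4.13, 3.87 and 4.69 in the treated, untreated and Id cKO hearts, at 5.02 and 7.32 in Id controls 1 and 2, and at 7.18 in WT. Quantile normalization changed the order. Id1 then read 6.50 (treated), 6.51 (untreated), 6.07 (Id cKO), 7.68 (Id control 1), 6.00 (Id control 2) and 7.79 (WT). Id3 read 5.03 (treated), 4.74 (untreated), 4.24 (Id cKO), 4.58 (Id control 1), 6.90 (Id control 2) and 6.81 (WT). On that scale both incubated hearts exceeded Id cKO for both genes, Id control 2 for Id1 and Id control 1 for Id3. The pair stayed below WT for both genes. Whether these probe sets cover the deleted sequence is not stated in the labels. With so few arrays the number of hearts limits the precision, and the p-values below reflect no more than the scatter of these samples, which may be technical.

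Gdpd3 is a glycerophosphodiesterase that releases lysophosphatidic acid, a signalling lipid, from lysophospholipids. Cd109 is a lipid-anchored surface protein of the alpha-2-macroglobulin and complement family, known in skin as a co-receptor that dampens TGF-beta signalling. Trp53i11 encodes a protein first found as induced by the tumour suppressor p53. AA467197 is the mouse counterpart of human C15orf48, a small mitochondrial protein related to Ndufa4, the subunit of cytochrome c oxidase that it can replace in inflamed human cells. Ahnak2 is a very large scaffold protein related to Ahnak, which binds annexins and S100 proteins. Capg is a gelsolin relative that caps actin filaments and is abundant in macrophages. Chst1 adds sulfate to galactose of keratan sulfate, a sugar chain of matrix proteoglycans. E proteins, the partners of Id1 and Id3, bind the E-box, whose letters are CANNTG.

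The promoters of 6 of the 7 genes were matched in the RefSeq table, on build GRCm38.p6, each running from 250 bases before to 50 bases after the annotated start. The 3 printed here belong to the genes with the largest gaps in Id cKO among those matched, and show how unlike they are in E-boxes, which stand in capitals.
Gdpd3, chr7:126766164-126766463, + strand: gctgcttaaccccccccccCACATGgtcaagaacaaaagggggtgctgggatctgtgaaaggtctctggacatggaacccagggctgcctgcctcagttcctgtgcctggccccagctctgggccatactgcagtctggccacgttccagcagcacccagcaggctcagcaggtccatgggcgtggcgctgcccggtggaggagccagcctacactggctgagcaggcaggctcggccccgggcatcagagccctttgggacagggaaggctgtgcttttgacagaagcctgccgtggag
Trp53i11, chr2:93187298-93187597, + strand: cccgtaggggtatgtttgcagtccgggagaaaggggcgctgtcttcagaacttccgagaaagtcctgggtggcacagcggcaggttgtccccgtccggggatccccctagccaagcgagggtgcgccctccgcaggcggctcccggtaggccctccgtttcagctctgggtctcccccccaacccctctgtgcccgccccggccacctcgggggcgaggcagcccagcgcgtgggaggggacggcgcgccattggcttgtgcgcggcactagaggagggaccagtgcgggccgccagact
AA467197, chr2:122637637-122637936, + strand: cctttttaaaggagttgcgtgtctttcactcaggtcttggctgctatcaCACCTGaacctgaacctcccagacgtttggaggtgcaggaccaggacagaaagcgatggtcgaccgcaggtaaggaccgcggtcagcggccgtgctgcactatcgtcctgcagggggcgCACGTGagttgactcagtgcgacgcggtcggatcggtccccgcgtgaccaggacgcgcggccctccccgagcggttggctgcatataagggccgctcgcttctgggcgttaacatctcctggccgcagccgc
CANNTG, which reads the same on both strands, occurred 1 time in the window of Gdpd3, 2 times in that of AA467197 and in that of Ahnak2, and 3 times in that of Capg. No match lay in the windows of Trp53i11 and Chst1. Of all 32851 mouse promoter windows of 300 bases, 72.3% held at least 1 match, a share to be read beside the 4 of 6 genes here. The form CAGGTG was found in AA467197 and Capg (20.2% of all windows), and CAGCTG in Ahnak2 and Capg (16.3%), searched on both strands. The AP-1 motif TGANTCA was found in AA467197 alone among the 6, against 7.81% of all windows. The core ACGTG of hypoxia response elements lay in the windows of Gdpd3, AA467197 and Ahnak2, against 19.6% of all windows, and in AA467197 it lies inside the second E-box. These letters are a description of the windows and say nothing of which factor binds there.

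In the Id cKO heart, all 7 genes stood at least 2-fold above every Id control and WT array, as the choice demands. By that rule 75 of 11310 compared genes were counted (0.663%), and nothing is read from the 7 among them. Gdpd3 had the widest gap of all compared genes, at 14.3-fold over the highest of the 3 other arrays. AA467197 (6.34-fold), Trp53i11 (6.21-fold) and Cd109 (5.62-fold) ranked 4, 5 and 6. Ahnak2 (2.71-fold), Capg (2.52-fold) and Chst1 (2.11-fold) ranked 31, 38 and 64. Just inside the limit lay Rab27b and Septin11 with gaps of 1.01 and 1.00 on the log2 scale, and just outside it Egln3 and Dll4 with 0.99 and 0.98. Within the shared date code, differences of Id cKO from Id control 2 ran from 1.08 (Chst1) to 4.08 (Gdpd3), and from WT from 1.54 (Chst1) to 3.84 (Gdpd3). In whole hearts, more cells of a type and more RNA per cell cannot be told apart.

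The incubated knockout hearts were high for the same genes once the arrays were brought to 1 scale. On quantile-normalized values, 6 of the 7 genes kept a gap of at least 2-fold, with both incubated arrays above WT and both Id control arrays, and Chst1 did not. That rule counted 246 of 10239 compared genes (2.4%), or 284 of all 19938 genes when no floor was set on the level (1.42%). By any amount, 27.1% of compared genes were above all 3 on both incubated arrays. The incubated pair was set against the same WT and Id control arrays that served in the choice, so that a low value on those arrays enters both comparisons. A gene entered a comparison when its higher group mean reached 6. All 7 met this floor, but Gdpd3, Cd109, AA467197 and Chst1 met it only through the knockout hearts, and without a floor the same 6 genes kept the gap.

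**Figure D1:**
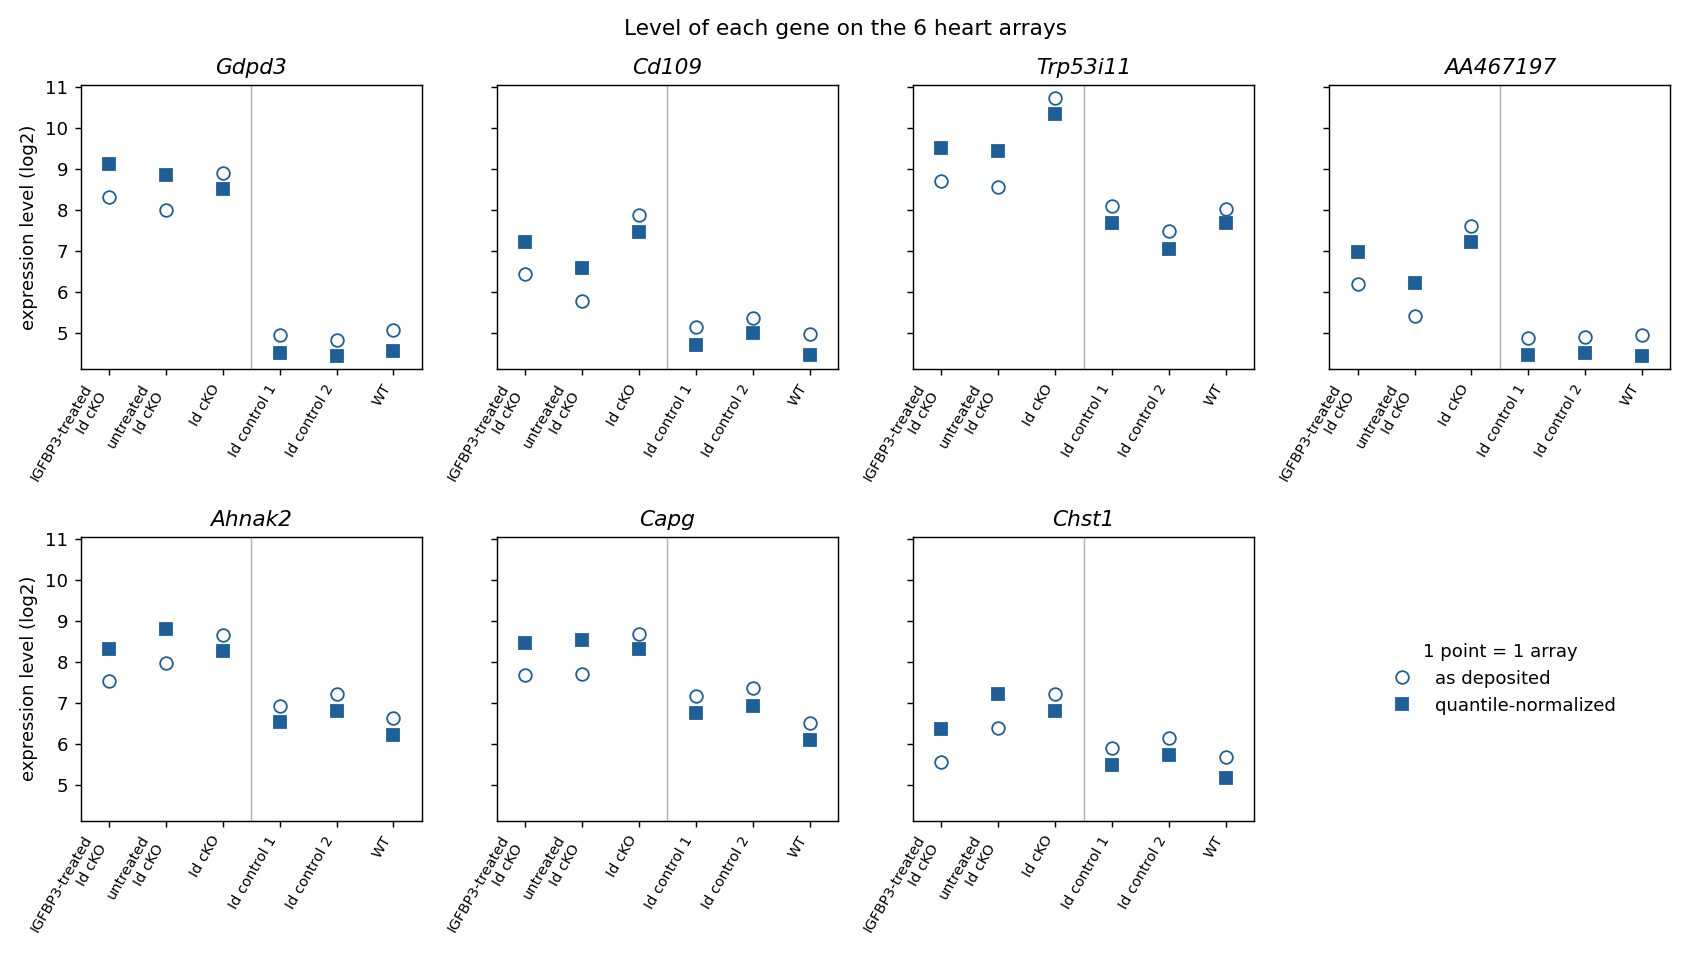
Log2 expression level of each gene (vertical axis) on the 6 arrays (horizontal axis), as deposited (open circles) and quantile-normalized (filled squares), with 1 point per array and the vertical line between knockout hearts and the others. Gdpd3 stood far above the line of the 3 other arrays on either scale, from 8.51 to 9.12 in the knockout hearts and from 4.43 to 4.55 in the others after normalization, and Chst1 came nearest to them.

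Gdpd3, the lipid enzyme, was the gene with the largest difference. Its deposited levels were 8.33 in IGFBP3-treated Id cKO, 8.00 in untreated Id cKO and 8.90 in Id cKO, against 4.94 and 4.82 in Id controls 1 and 2 and 5.06 in WT. It was thus the member whose incubated arrays cleared the 3 other hearts by 2-fold even on the lower deposited scale, with a smallest gap of 2.94. Within each array, Gdpd3 ranked at the 93.6, 91.7 and 89.3 percentile of genes in the treated, untreated and Id cKO hearts, and at the 25.1, 23.3 and 25.4 percentile in Id control 1, Id control 2 and WT. This rank of 1 probe set within each array needs no scaling between arrays. After quantile normalization it was at 9.12, 8.85 and 8.51 in the treated, untreated and Id cKO hearts, against 4.51, 4.43 and 4.55 in Id control 1, Id control 2 and WT. In limma with Benjamini-Hochberg adjustment, the incubated pair was 4.51 ± 0.18 (SE) above Id control, with an adjusted p of 9.29e-05, the third smallest p of the 10251 genes compared. The Id control mean of 4.47 lies under the floor of 6 and under the array median of 5.34, so that low signal limits how exactly the size of this rise is known. Against WT it was 4.44 ± 0.23 (SE) higher in limma, adjusted p = 0.00033. Both incubated arrays lay above Id cKO itself on this scale.

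Cd109, the TGF-beta co-receptor, was at 6.43, 5.77 and 7.86 as deposited in the treated, untreated and Id cKO hearts, against 5.15 and 5.37 in Id controls 1 and 2 and 4.98 in WT. On that scale the untreated heart was only 0.40 above Id control 2. Normalized levels were 7.22, 6.58 and 7.47 in the treated, untreated and Id cKO hearts, against 4.71, 4.99 and 4.46 in Id control 1, Id control 2 and WT, and both incubated hearts lay above all 3 of the others. The rise of the incubated pair was 2.05 ± 0.25 (limma SE) over Id control, adjusted p = 0.00386, and 2.44 ± 0.30 over WT, adjusted p = 0.00503. By rank within the array, Cd109 was at the 72.1, 61.4 and 76.3 percentile in the treated, untreated and Id cKO hearts and between the 24.1 and 33.8 percentile in the others.

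Trp53i11, the p53-induced gene, had deposited levels of 8.71, 8.56 and 10.74 in the treated, untreated and Id cKO hearts, against 8.10, 7.49 and 8.02 in Id control 1, Id control 2 and WT. On normalized values it was at 9.51, 9.43 and 10.35 in the treated, untreated and Id cKO hearts, against 7.67, 7.05 and 7.67 in Id control 1, Id control 2 and WT. Id cKO stayed the highest array, with both incubated hearts between it and the others. The pair was 2.11 ± 0.24 (limma SE) above Id control, adjusted p = 0.00285, and 1.80 ± 0.29 above WT, adjusted p = 0.0111. The call against WT was lost on deposited values, where the difference was 0.61 with an adjusted p of 0.076.

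AA467197, the mitochondrial Ndufa4 relative, had the tightest levels outside the knockout. As deposited it was at 6.19, 5.41 and 7.62 in the treated, untreated and Id cKO hearts, against 4.88, 4.91 and 4.95 in Id control 1, Id control 2 and WT. Normalized levels were 6.98, 6.21 and 7.22 in the treated, untreated and Id cKO hearts and 4.45, 4.51 and 4.43 in Id control 1, Id control 2 and WT. The untreated heart was thus the lowest of the 3 knockout hearts and still 1.70 above the highest of the others. In limma the pair rose by 2.11 ± 0.26 (SE) over Id control, adjusted p = 0.00413, and by 2.16 ± 0.32 over WT, adjusted p = 0.00876. The interval of the microRNA gene Mir147 lies inside that of AA467197 in the RefSeq table, and the microRNA itself was not analysed here.

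Ahnak2, the scaffold protein, was measured by a pair of probe sets, of which the brighter stands for the gene. That probe set was at 7.54, 7.96 and 8.65 as deposited in the treated, untreated and Id cKO hearts, against 6.92, 7.21 and 6.63 in Id control 1, Id control 2 and WT. After normalization it was at 8.32, 8.81 and 8.27 in the treated, untreated and Id cKO hearts, against 6.52, 6.80 and 6.22 in Id control 1, Id control 2 and WT. The incubated hearts, both above Id cKO, rose by 1.90 ± 0.22 (limma SE) over Id control, adjusted p = 0.00341, and by 2.34 ± 0.27 over WT, adjusted p = 0.00426. The other probe set showed a flatter pattern in the same direction, at 7.81, 7.79 and 7.75 (normalized) in the treated, untreated and Id cKO hearts against 6.44, 6.49 and 6.61 in Id control 1, Id control 2 and WT.

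Capg, the actin-capping protein, had deposited levels of 7.68, 7.71 and 8.69 in the treated, untreated and Id cKO hearts, against 7.16, 7.35 and 6.51 in Id control 1, Id control 2 and WT. Normalized, it was at 8.46, 8.54 and 8.30 in the treated, untreated and Id cKO hearts, against 6.75, 6.93 and 6.09 in Id control 1, Id control 2 and WT. The 3 knockout hearts lay closer to each other than to any other heart, while the Id controls were themselves 0.75 above WT on average. The pair was 1.66 ± 0.18 (limma SE) above Id control, adjusted p = 0.00234, and 2.41 ± 0.22 above WT, adjusted p = 0.00176. Capg is known from macrophages, and the macrophage list is given with the cell type markers below.

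Chst1, the keratan sulfate sulfotransferase, was the member that did not keep the gap. Its deposited levels were 5.56, 6.38 and 7.20 in the treated, untreated and Id cKO hearts, against 5.88, 6.13 and 5.66 in Id control 1, Id control 2 and WT, so that the treated heart lay below all 3 others on that scale. Normalized levels were 6.37, 7.21 and 6.80 in the treated, untreated and Id cKO hearts, against 5.48, 5.73 and 5.17 in Id control 1, Id control 2 and WT. Both incubated hearts were then above the 3 others, the untreated one by 1.47 and the treated one by 0.63, which is short of 2-fold. The pair still passed the limma test, 1.18 ± 0.29 (SE) above Id control with an adjusted p of 0.0294 and 1.61 ± 0.35 above WT with an adjusted p of 0.0271. Without the untreated heart the difference from Id control was 0.76, with an adjusted p of 0.0522 in limma, and on deposited values it was -0.03, with an adjusted p of 0.908.

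All 7 genes thus passed limma in both comparisons of the incubated pair, where 10.1% of 10251 compared genes were called higher against Id control and 7.78% of 10272 against WT. Of the 1405 genes called in either direction against WT, 799 were higher, and 1117 of 1463 were higher after centring the arrays on their medians. The 2 comparisons share the incubated arrays, and against WT the reference is 1 array. In both, the pair differs from its reference in knockout, incubation and date code together, and these cannot be told apart. The WT and Id control arrays had also served in the choice of the 7 genes. The incubated hearts and WT share a male pattern, whereas the Id controls have a female one, and the part of sex in these differences was not tested. On the normalized scale the mean of the pair differed from Id cKO by -0.57 for Cd109, -0.63 for AA467197 and -0.88 for Trp53i11, by 0.47 for Gdpd3, 0.30 for Ahnak2 and 0.20 for Capg, and by -0.01 for Chst1. Id cKO was therefore the highest of the 6 hearts for all 7 genes as deposited, but for 3 of them, Cd109, Trp53i11 and AA467197, after normalization.

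**Figure D2:**
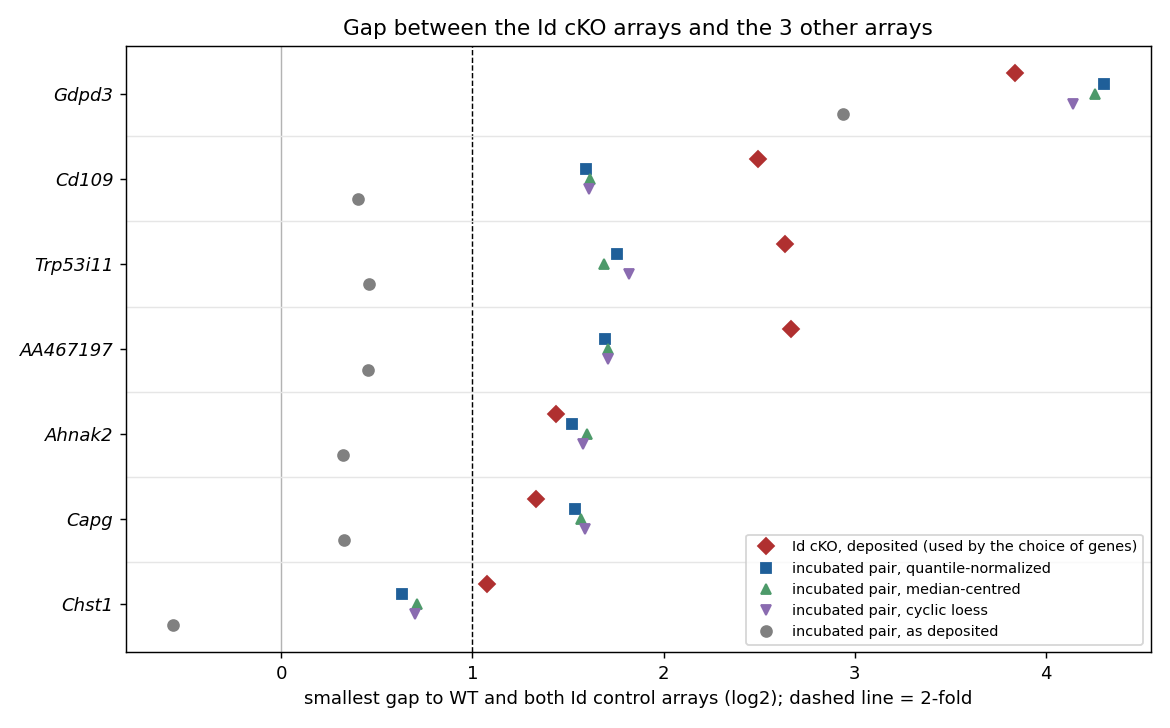
Smallest gap in log2 units (horizontal axis) between the knockout array or pair and the highest of WT and both Id control arrays, for each gene (vertical axis), with the dashed line at 2-fold. Under quantile, median and cyclic loess scaling the pair passed the line for 6 genes and missed it for Chst1 (0.63 to 0.71), while on deposited values Gdpd3 alone passed.

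The gap of the pair varied little between ways of bringing the arrays to 1 scale. With each array centred on its median, the smallest gaps were 4.26 for Gdpd3, 1.62 for Cd109, 1.69 for Trp53i11, 1.71 for AA467197, 1.60 for Ahnak2, 1.57 for Capg and 0.71 for Chst1, and 2.76% of compared genes passed 2-fold. Cyclic loess gave 4.14 for Gdpd3, between 1.58 and 1.82 for the next 5, and 0.70 for Chst1, with 2.77% of genes passing. On deposited values the gap was 2.94 for Gdpd3, between 0.32 and 0.46 for the next 5, and -0.57 for Chst1, with 0.345% of genes passing, so that the answer for those 5 rests on the rescaling.

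**Figure D3:**
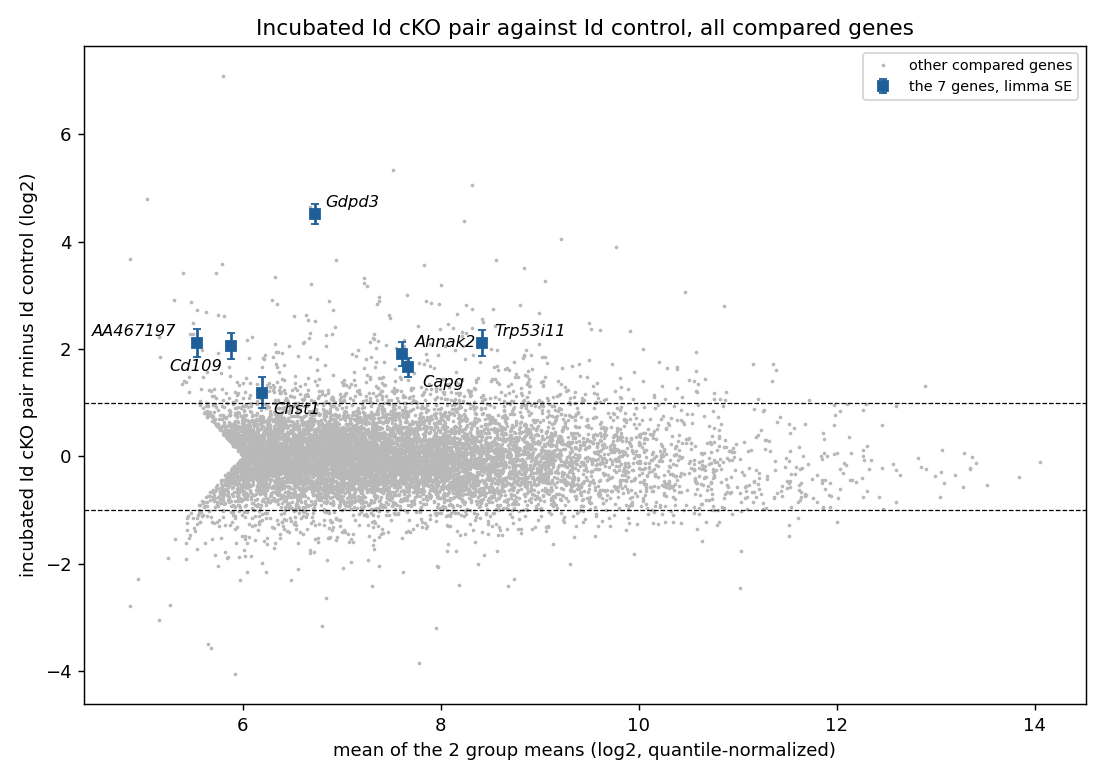
Difference of the incubated pair from Id control (vertical axis, log2, quantile-normalized) against the mean of both group means (horizontal axis, log2) for each of the 10251 compared genes, with the 7 genes as squares and their limma SE as bars. Gdpd3 lies at 4.51, the other 6 between 1.18 and 2.11, and the dashed lines mark 2-fold.

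IGFBP3-treated and untreated Id cKO hearts were compared as deposited, since both arrays share scale and date code, and with 1 array each the differences have no replicate check. None of the 7 genes was 2-fold apart, where 37 of 7474 compared genes were 2-fold higher (0.495%) and 60 were 2-fold lower (0.803%) in the treated heart. AA467197 and Cd109 were higher with IGFBP3 by 0.78 and 0.66, and Chst1 was lower, at -0.82. Gdpd3 and Trp53i11 were higher by 0.32 and 0.14, Ahnak2 was at -0.43 and Capg at -0.02. Quantile normalization kept these signs. The incubated arrays share 1586 exactly equal values, against at most 32 in any other pair of arrays, and none of the 7 genes was among them.

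Few relatives and partners of the 7 genes were 2-fold apart. Lists of these genes held 145 names beside the 7, of which 133 were measured. In Id cKO, 2 of 103 compared relatives were 2-fold above all 3 other hearts and 0 were 2-fold below (0.663% and 0.309% of all compared genes). In the incubated pair, 5 of 100 compared relatives were 2-fold higher and 0 lower (2.4% and 1.39% of all). In limma, 22 of 100 were higher and 8 lower than in Id control (10.1% and 10.6% of all genes), and 20 of 101 higher and 4 lower than in WT (7.78% and 5.9%). The median relative differed by 0.24 from Id control and 0.36 from WT, where the medians of all genes were -0.04 and -0.03.

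Around Gdpd3, the other glycerophosphodiesterases did not share its pattern. All 4 compared lay below the mean of the other hearts, with a median of -0.46 in Id cKO (deposited) and -0.49 in the pair (normalized), and 0 of 4 passed limma. Gdpd1 was at -0.64 and Gdpd5 at -0.54 in Id cKO. Of the genes that make, sense or break down lysophosphatidic acid, 0 of 9 compared were 2-fold apart in Id cKO (median 0.25), with the receptor Lpar6 at 0.48. In the pair, 2 of 8 passed limma higher and 1 lower than Id control, among them Pla1a, a phospholipase that makes lysophosphatidylserine, at 1.80 ± 0.18 (limma SE) with an adjusted p of 0.00189. Pla1a was at 8.82 in the treated heart and 8.69 in the untreated one but only 7.31 in Id cKO, against 7.06, 6.86 and 6.71 in Id control 1, Id control 2 and WT (normalized).

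Around Cd109, C4b was the 1 complement relative above the floor. It was at 7.98 and 8.46 (normalized) in the treated and untreated hearts and at 6.11 in Id cKO, against 5.94, 6.81 and 5.80 in Id control 1, Id control 2 and WT. C4b therefore rose in the incubated pair (1.85 ± 0.31 over Id control, limma SE, adjusted p = 0.0104) and was at -0.08 in Id cKO. Of 11 genes listed for TGF-beta, 0 were 2-fold apart in either knockout group. They were receptors and co-receptors together with Ltbp1, Smad2, Smad3, Smad7 and Stat3. In limma 4 passed higher than Id control (Acvrl1, Eng, Lrrc32 and Tgfbr2) and 3 higher than WT. Tgfbr2, the type II receptor, was 0.70 higher in Id cKO and 0.71 ± 0.17 above Id control in the pair, adjusted p = 0.0291 (limma). Tgfbr3, the co-receptor betaglycan, was at -0.87 in Id cKO and -0.22 ± 0.17 in the pair, adjusted p = 0.38 (limma).

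Of 19 compared p53 target genes listed for Trp53i11, Plk2, a stress-induced kinase, was 2-fold higher in Id cKO, with a list median of 0.01. Plk2 was at 9.36, 8.95 and 8.58 (normalized) in the treated, untreated and Id cKO hearts, against 7.35, 7.33 and 7.00 in Id control 1, Id control 2 and WT, and rose by 1.81 ± 0.20 over Id control in the pair (limma SE, adjusted p = 0.00265). In the pair, 5 of 18 passed limma higher and 1 lower than Id control, and 3 higher and 0 lower than WT. Among them was Btg2, a growth inhibitor, at 1.43 ± 0.19 (limma SE, adjusted p = 0.00504), which was 0.25 higher in Id cKO. Phlda3, an inhibitor of Akt, was at 0.98 in Id cKO and 1.12 ± 0.18 over Id control in the pair (limma SE, adjusted p = 0.0095). The p53 list had a median of 0.19 in the pair over its 18 genes.

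The closest relatives of AA467197 did not pass the test. Ndufa4 was at 12.10, 12.01 and 12.44 (normalized) in the treated, untreated and Id cKO hearts, against 12.47, 12.45 and 12.64 in Id control 1, Id control 2 and WT, and Ndufa4l2 at 7.63, 7.57 and 7.49 in the knockout hearts against 7.43, 7.03 and 7.17 in the same order. In limma against Id control the pair differed by -0.41 ± 0.17 (SE) for Ndufa4, adjusted p = 0.131, and by 0.36 ± 0.20 for Ndufa4l2, adjusted p = 0.227. Among 15 compared genes of the Ndufa4 family and cytochrome c oxidase, Cox4i2, the isoform of subunit 4 known for its role under low oxygen, was 2-fold higher in both knockout groups. It was at 9.65, 10.15 and 9.66 (normalized) in the treated, untreated and Id cKO hearts, against 6.82, 7.50 and 7.05 in Id control 1, Id control 2 and WT, and rose by 2.74 ± 0.28 over Id control in the pair (limma SE, adjusted p = 0.00208). The list median was -0.08 in Id cKO and -0.01 in the pair, with 3 of 15 passing limma higher and 4 lower than Id control. Cox7a1, the muscle isoform of subunit 7a, was at -0.67 ± 0.18 in the pair against Id control (limma SE, adjusted p = 0.0393) and at -0.35 in Id cKO.

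The lists for Ahnak2, Capg and Chst1 held 0 genes 2-fold apart in Id cKO. The 9 compared partners of Ahnak2 were Ahnak, annexin and S100 genes together with Dysf, Cav3 and Myof. Of these, 4 passed limma higher and 1 lower than Id control (median 0.69). The lower gene was Cav3, at -0.93 ± 0.22 (limma SE, adjusted p = 0.0291). Anxa2, the annexin that Ahnak binds, was 0.89 higher in Id cKO and 0.80 ± 0.21 above Id control in the pair (limma SE, adjusted p = 0.04), and S100a11 was 0.84 higher and 0.78 ± 0.26 above (adjusted p = 0.0753, limma). Of 12 gelsolin relatives, capping genes and other actin regulators, 1 passed limma against Id control. It was Tmsb4x, the actin-binding thymosin beta 4, at 1.36 ± 0.25 (limma SE, adjusted p = 0.0139). Tmsb4x is neither a gelsolin relative nor a capping gene. Gsn, gelsolin itself, was at -1.03 in Id cKO and 0.59 ± 0.26 above Id control in the pair (adjusted p = 0.148, limma), and the difference between the knockout groups was not tested. Of 9 carbohydrate sulfotransferases beside Chst1, 0 were higher and 1 was lower than Id control in limma, Gal3st3, at -1.03 ± 0.24 (SE, adjusted p = 0.0272). Ust, another sulfotransferase, was at -0.46 in Id cKO. Of 13 keratan sulfate carriers and synthesis genes, 2 were higher than Id control in limma. They were Prelp at 1.41 ± 0.29 (SE, adjusted p = 0.0193) and Papss2 at 1.05 ± 0.19 (adjusted p = 0.0135). In Id cKO the carrier Ogn was at -0.78 and the enzyme gene B3gnt2 at 0.65. Neither Ogn nor B3gnt2 passed limma against Id control in the pair (adjusted p = 0.605 and 0.34).

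**Figure D4:**
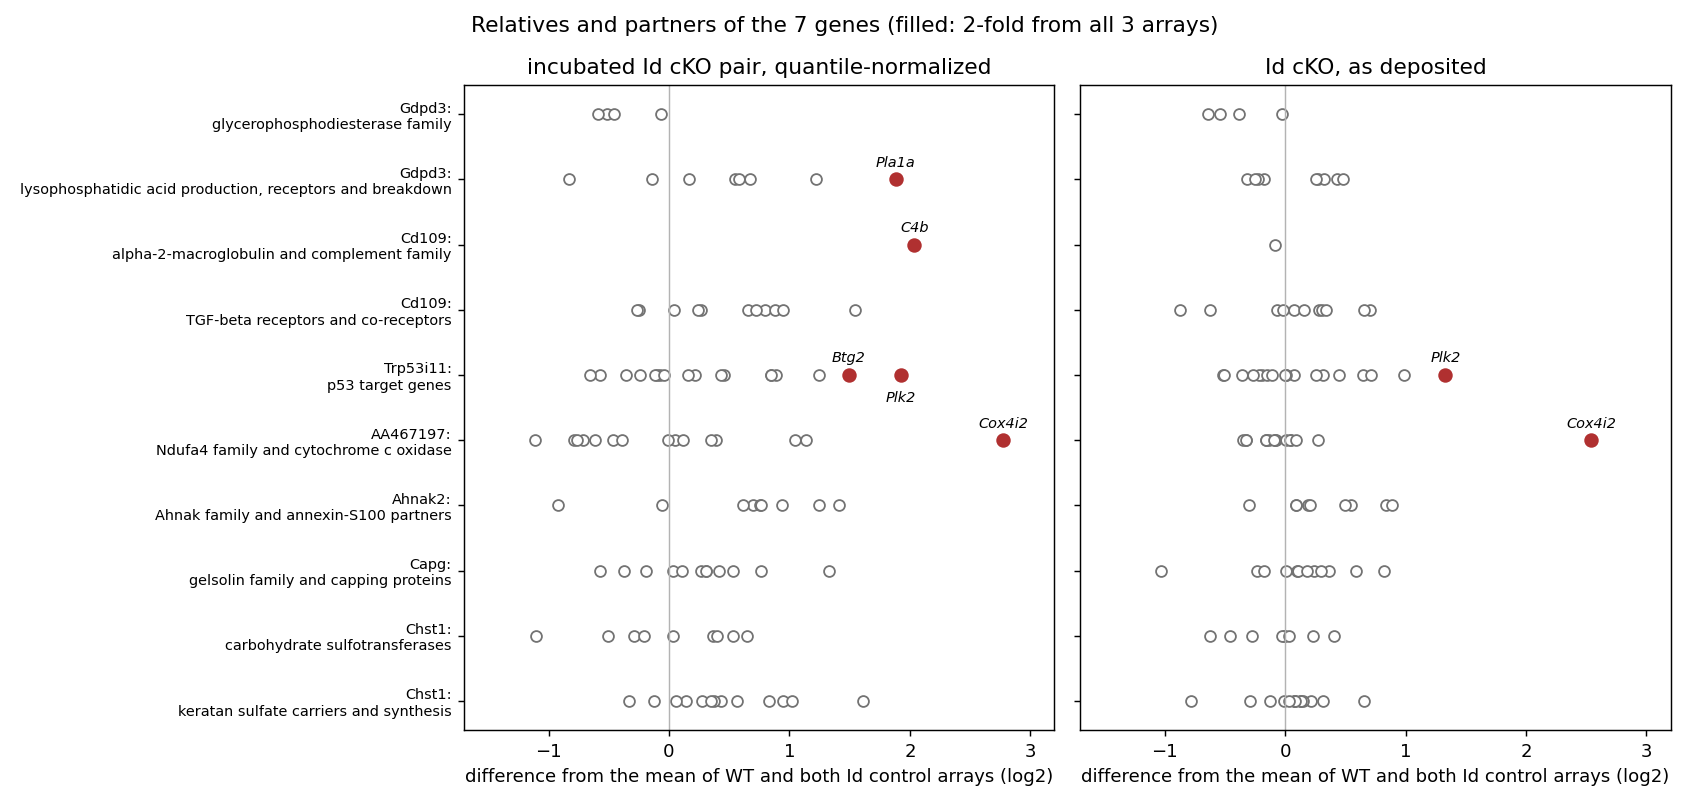
Difference from the mean of WT and both Id control arrays (horizontal axis, log2) of the compared relatives and partners of each gene (vertical axis, 1 row per list), in the incubated pair after quantile normalization (left) and in Id cKO as deposited (right). Filled points were 2-fold from all 3 arrays: Pla1a, C4b, Btg2, Plk2 and Cox4i2 in the pair, and Plk2 and Cox4i2 in Id cKO.

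Markers of cell types moved with the groups as well. Of all compared genes, 26.9% were above the 3 other hearts by any amount in Id cKO (deposited) and 27.1% on both incubated arrays (normalized). The mean deposited level of 10 endothelial markers was 9.57 in Id cKO, against 9.05 in Id control 1, 9.09 in Id control 2 and 8.98 in WT, with 8 of 10 above all 3 other hearts. On normalized values it was 9.62 and 9.45 in the treated and untreated hearts, against 8.62, 8.64 and 8.62 in Id control 1, Id control 2 and WT, with 9 of 10 above. The list median was 0.49 in Id cKO and 0.96 in the pair, and in limma 6 of 10 were higher than Id control in the pair. Their differences from Id control ran from 0.24 ± 0.24 for Kdr (limma SE, adjusted p = 0.506) to 1.22 ± 0.23 for Cldn5 (adjusted p = 0.0143). The median of the 10 was 1.00, and Chst1 was at 1.18. The mean of 10 macrophage markers was lower in Id cKO, at 7.36, against 7.86, 7.87 and 7.56 in Id control 1, Id control 2 and WT, and 1 of 10 was above all 3. In the pair it was higher, at 7.88 in the treated and 8.22 in the untreated heart, against 7.44 in both Id controls and 7.18 in WT (normalized), with 7 of 10 above. Fibroblast markers had a median of 0.01 in Id cKO and 0.86 in the pair, and smooth muscle and pericyte markers 0.21 and 0.70. The fibroblast list was split in Id cKO, with differences from -1.09 to 1.00. Of its 10 markers, 1 was above and 5 were below all 3 other hearts (deposited). The smooth muscle and pericyte list was mixed in Id cKO, at -0.67 for Myh11, -0.65 for Acta2 and -0.50 for Tagln. At its other end were Pdgfrb (0.69), Kcnj8 (0.73) and Cspg4 (0.85), with the rest of the list in between. Heart muscle markers averaged 13.2 in Id cKO and between 13.2 and 13.3 in Id controls and WT (deposited). In the pair they averaged 12.67 and 12.53 in the treated and untreated hearts, against 13.09, 12.97 and 13.01 in Id control 1, Id control 2 and WT (normalized), with 2 of 10, Tnni3 and Myl2, lower than Id control in limma. Red cell and platelet markers averaged 7.56 and 7.16 in the treated and untreated hearts, against 6.08, 6.03 and 6.95 in Id control 1, Id control 2 and WT (normalized), and in limma 4 of 5 compared were higher than Id control, among them Alas2 at 2.81 ± 0.20 (SE, adjusted p = 0.000766) and Ppbp at 2.27 ± 0.32 (adjusted p = 0.00639). Against WT, the difference of the pair was only 1.13 for Alas2 and -0.15 for Ppbp. The median of the compared red cell and platelet markers was 0.96 over Id control and 0.39 over WT. In Id cKO the same list averaged 6.14, against 6.49, 6.43 and 7.35 in Id control 1, Id control 2 and WT (deposited). Pmp22, the 1 Schwann cell marker compared, was 2.00 ± 0.21 (SE) above Id control in the pair, adjusted p = 0.00228 in limma. In Id cKO, Pmp22 was at -0.17. The other measured markers of that list lay under the floor in the pair. Against the mean of WT and both Id controls they were at 0.07 (Sox10), -0.09 (Mbp) and 0.28 (S100b) in the pair. In Id cKO, 0 of 10 epithelial and keratinocyte markers reached 6 (deposited). Of 10 epicardial and mesothelial markers, 3 were above and 1 was below all 3 other hearts in Id cKO (deposited). Krt18, a keratin gene of that list, was 2-fold above them, with a gap of 1.33. The list median was -0.06 in Id cKO. Atrial markers averaged 9.87 in Id control 2, against 6.44 in Id control 1 and 6.29 in WT (deposited). The part of these cell types in the levels of the 7 genes was not tested.

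Profiles over the 6 normalized arrays, each centred on its own mean, were compared by their root mean square distance in log2 units, with 10769 genes searched. Cd109 and AA467197 were each other's nearest gene of all (0.14), and Ahnak2 and Capg were 0.17 apart. Gdpd3 lay at least 1.06 from every other member. Its nearest gene was Igfbp3 (0.56), the gene of the protein used in the incubation, at 10.68, 10.69 and 11.22 in the treated, untreated and Id cKO hearts, against 7.47, 7.38 and 7.39 in Id control 1, Id control 2 and WT. Adamts4, a matrix protease, and Postn, the matrix protein periostin, followed at 0.71 each. After AA467197, Cd109 was nearest to the endothelin receptor gene Ednrb (0.22) and the natriuretic peptide gene Nppb (0.26). Trp53i11 was nearest to the chemokine receptor gene Cxcr4 (0.27), AA467197 (0.32) and Fxyd6 (0.40), and AA467197, after Cd109, to Cxcr4 (0.22) and Ednrb (0.27). Ahnak2 and Capg shared Gprc5b (0.14 and 0.24) beside each other, and were close to Inhbb (0.20) and Tgfb2 (0.20). Chst1 was nearest to Meox1 (0.088), Dusp4 (0.13) and Rhoc (0.17). These distances describe 6 arrays that share their groups and carry no test.

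Genes beside the 7 on their chromosomes were looked up in the same arrays. Trp53i11, AA467197 and Chst1 lie on chromosome 2, Gdpd3 on 7, Cd109 on 9, Ahnak2 on 12 and Capg on 6. For the 3 measured genes on each side of every member, 42 places in all and 34 of them compared, 1 neighbour was 2-fold above the other hearts in Id cKO, where 0.663% of all compared genes were, so that the count says nothing particular of neighbours. It was the collagen gene Col12a1 beside Cd109, with a gap of 1.04 in Id cKO and 1.05 in the pair. Chst1 and Trp53i11 are separated by 3 measured genes, Syt13, Prdm11 and 4631405J19Rik, which count for both. Prdm11 and 4631405J19Rik were both at -0.14 in Id cKO, and Syt13 lay under the floor.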

How the data were processed

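RNA of 6 hearts was measured on 1 array each. The authors deposited log2 expression values of 35557 probe sets for every array, made with Affymetrix Expression Console and RMA per the submitters' processing notes, which name no versions. Per the labels' protocols, 300 ng of total RNA was labelled. The supplied platform annotation gave 21789 probe sets with 1 symbol, 1621 with several and 12147 with none. Only the first kind was used, with the probe set of highest mean over the arrays for each of 19938 genes.

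The members, gene lists and rules were chosen with earlier results of these data known. All 6 arrays were quantile-normalized, and limma 3.58.1 in R 4.3.3 (lmFit, eBayes) was fitted with the incubated pair as 1 group beside Id control, WT and Id cKO (4 groups, 2 residual degrees of freedom), with Benjamini-Hochberg adjustment over all compared genes and a limit of 0.05. IGFBP3 thus enters the spread of the pair, and WT and Id cKO are assumed to vary like the groups with 2 arrays. Where the pair holds equal values on both arrays, its spread before normalization is 0. Compared genes had a higher group mean of at least 6. Counts by size needed every array of the group to be 2-fold from WT and both Id control arrays. Besides the 7 genes, those named were relatives counted at 2-fold, the 2 of each list with the largest difference in Id cKO, the 3 nearest profiles, Ndufa4 and Ndufa4l2, and Id1, Id3, Igfbp3, Xist and Eif2s3y. Genes at the limit of the rule, the markers Cldn5, Tnni3, Myl2, Alas2, Ppbp and Pmp22, and Col12a1, Syt13, Prdm11 and 4631405J19Rik were named after their values were seen. The same holds for Cav3, Kdr, Krt18, Prelp and Papss2, for Acvrl1, Eng and Lrrc32, and for the named genes of the smooth muscle and Schwann cell lists. Ltbp1, Smad2, Smad3, Smad7, Stat3, Dysf and Myof were named to say what their lists hold. The fits were also run on simulated data with independent noise, without the scale offset or the equal values of the pair. Changes were added there only to genes with a mean of at least 6. These runs therefore say nothing of the offset, the equal values or genes of low signal. Alternatives changed the normalization, the floor, the probe set rule, the groups and the arrays left out.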

Additional observations from a re-analysis of the deposited data

How the results depend on the processing

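Over the normalizations, floors, probe set rules, fits and left-out arrays tried, Gdpd3, Ahnak2 and Capg kept their limma direction and call in both comparisons. Cd109 and AA467197 did so wherever they were compared. Neither was compared when the mean over all 6 arrays had to reach 6, where 5 members passed in each comparison. A floor of 8 left both out as well, and AA467197 was not compared on deposited values. Trp53i11 lost its call against WT on deposited values (0.61, adjusted p = 0.076). Chst1 lost it against Id control without the untreated heart (0.76, adjusted p = 0.0522) and turned to -0.0348 on deposited values. Values as deposited moved the most counts, since the pair lies lower on that scale: 10146 genes were called against Id control, 132 of them higher, and 9809 against WT, 163 of them higher and 4 of them members, while 38 genes and 1 member were 2-fold higher in the pair. A floor of 8, which fewer genes pass, left 1164 calls against Id control (564 higher, 4 members), 844 against WT (462 higher, 4 members), 159 genes 2-fold higher in the pair, 44 genes and 4 members in Id cKO, and 39 genes between the treated and untreated hearts. With no floor there were 3426 calls against Id control and 178 genes 2-fold apart between the treated and untreated hearts. With the incubated arrays as separate groups, 3580 genes were called against Id control (1644 higher) and 2732 against WT (1349 higher); the cause was not tested. At 1.5-fold, 652 genes were counted in the pair, 271 in Id cKO, and 1076 between the treated and untreated hearts, with 3 members (Cd109, AA467197 and Chst1). Leaving out 1 array at a time gave 1110 to 3138 calls against Id control (581 to 1483 higher, 6 to 7 members), 1659 to 2404 against WT (901 to 1212 higher), 283 to 447 genes 2-fold higher in the pair and 96 to 140 in Id cKO. The lowest counts against Id control came without Id control replicate 1 (1110) or replicate 2 (1203), the highest against WT without the treated heart (2404). Without the treated heart Chst1 passed the 2-fold gap (1.47). No paired analysis was possible, since every group but Id control has 1 array and the 2 Id control hearts differ in genotype. Low signal limits Gdpd3, Cd109, AA467197 and Chst1, whose means outside the knockout hearts lay under 6.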
